A study of Sus scrofa with 2 samples.

Results

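The miRNAs miR-9, miR-7, miR-124, miR-128 and miR-218, which are best known from nervous tissue, were followed in small RNA libraries made from the whole testes of Junmu-1 pigs, an indigenous Chinese breed. One library came from sexually mature boars of 180 days and 1 from sexually immature boars of 30 days, and each held the pooled RNA of 3 boars. The members were the sequence tags whose deposited miRNA name, from any species, was miR-9, miR-9a, miR-7, miR-7a, miR-7b, miR-124, miR-124a, miR-128, miR-128a, miR-128b, miR-218, miR-218a or miR-218b, either arm. This gave 12 names by arm of 1385 in the series. miR-9a was pooled with miR-9 and miR-218a with miR-218, because one deposited sequence is the start of the other, which left 10 member arms. No tag was listed under miR-7a, miR-128a, miR-128b or miR-218b, or under a star arm of miR-128 or miR-124.

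In neurons and their progenitors these miRNAs act as repressors of messenger RNAs, which they select mainly through the seed, bases 2 to 8 of the mature strand. miR-9 comes from 1 hairpin with its opposite strand miR-9*, and both are known from neural progenitors and neurons. miR-7 is prominent in neuroendocrine cells such as those of the pituitary and the pancreatic islets. miR-124 and miR-128 are abundant in mature neurons, and miR-218 is known from motor neurons. In the RefSeq annotation of the pig genome Sscrofa11.1, the miR-128 genes MIR128-1 and MIR128-2 lie within R3HDM1 and ARPP21, the genes MIR218-1 and MIR218B lie within SLIT2 and SLIT3, and MIR7-2 lies within HNRNPK. The 3 miR-9 genes of that annotation include MIR9-1, which lies within a long noncoding RNA gene.

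The most read sequences of the arms that the results turn on are given here as DNA reads, 5′ to 3′, with the seed in capitals, since the values below count reads of these sequences and their variants. The variants with a shifted start or an added base are shown because the composition of miR-9*, miR-7-1* and miR-128 turns on them. The shifted miR-9* variant shown also ends in an A that its deposited entry lacks, and it had 3 reads at 180 days and 6 at 30 days. The same variant with a further A had 11 reads at 180 days and 1 at 30 days.
miR-9: tCTTTGGTtatctagctgtatga
miR-9*: aTAAAGCTagataaccgaaagt
miR-9*, start shifted by 1 base: tAAAGCTAgataaccgaaagta
miR-7: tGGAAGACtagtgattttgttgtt
miR-7-1*: cAACAAATcacagtctgccata
miR-7-1*, start shifted by 1 base: aACAAATCacagtctgccata
miR-128: tCACAGTGaaccggtctcttt
miR-128 with A at its end: tCACAGTGaaccggtctcttta
miR-218: tTGTGCTTgatctaaccatgt
The leading sequences of miR-9, miR-9*, miR-7, miR-7-1*, miR-128 and miR-218 each had a different seed. miR-7 shared its seed with entries named miR-7b and miR-7c, which together held 3 reads at 180 days and 5 at 30 days. miR-124 shared its seed with miR-124a, which held 0 reads at 180 days and 1 at 30 days, and with the human miR-506 entry, which held 8 and 9 reads. These were a small part of the reads under the name miR-506, which held 3578 at 180 days and 5078 at 30 days.

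The 180-day library held 852209 reads matched to miRNAs and the 30-day library 7525725, so 1 read stood for 1.17 reads per 1000000 (RPM) at 180 days and 0.133 RPM at 30 days. The lowest whole-library totals that the tag numbers allow were 12035098 reads at 180 days and 12711254 at 30 days. Of these totals the miRNA-matched reads were 7.08% and 59.2%, so by them the libraries differed mainly in the matched share. Depth below means miRNA-matched reads, and the cause of this difference was not tested. RPM are counted over the miRNA-matched reads of a library, and 95% intervals are exact (Clopper-Pearson) and cover counting error only, since PCR copies are not independent molecules. Each age had 1 library, so nothing measures the spread between boars, and the values compare these libraries, not the ages. Testis markers were present: miR-202, of gonadal somatic cells, summed to 110872 RPM at 180 days, against 68481 RPM at 30 days, and the miR-34b/c and miR-449a/b arms of meiotic and later male germ cells summed to 35278 and 11.4 RPM. The names within the miR-202 sum went both ways. Their 180-day over 30-day ratios were 2.39 for miR-202* and 1.70 for miR-202-5p, but 0.667 for miR-202 and 0.628 for miR-202-3p. In whole tissue, fewer cells of a type and less RNA per cell cannot be told apart.

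Together the members took 0.288% of the miRNA reads in the 180-day library (0.277 to 0.300%) and 0.216% in the 30-day library (0.212 to 0.219%). miR-128 made up most of them, with 78.1% of the member reads at 180 days and 89.0% at 30 days. The miR-9 arms were a visible part of the members at 180 days, with 4.64% of member reads for miR-9 and 4.68% for miR-9*, and a trace at 30 days, with 0.0801% and 0.0863%. At both ages the order of the other arms was the same, from miR-128 through miR-7, miR-7-1* and miR-124 to miR-218. Neighbours in this order had separate RPM intervals, except miR-7-1* with miR-124 and miR-124 with miR-218 at 180 days. At 30 days miR-218, miR-9* and miR-9 were the lowest and had overlapping intervals, and at 180 days the miR-9 arms stood between miR-7 and miR-7-1*. In the plot of levels, miR-9 and miR-9* are the arms whose intervals lie far apart.

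**Figure D1:**
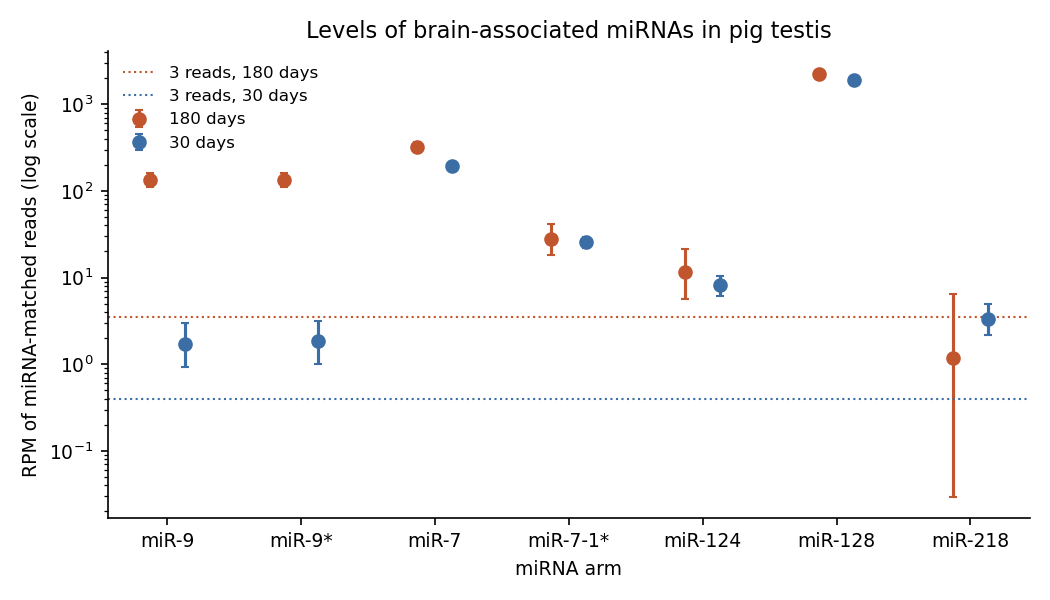
Level of each member arm with 20 or more reads in RPM of miRNA-matched reads (log scale), at 180 days (left point of each pair) and 30 days (right point), with exact 95% counting intervals; dotted lines mark 3 reads in each library. miR-9 and miR-9* lie at 133.8 and 134.9 RPM at 180 days, against 1.73 and 1.86 RPM at 30 days, while the other arms lie near each other.

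Both strands of the miR-9 hairpin were clearly present in the 180-day library. In the 30-day library they had few reads, at levels above the 0.399 RPM that 3 reads stand for there. miR-9 had 114 reads at 180 days, which is 133.8 RPM (110.3 to 161), against 13 reads at 30 days, which is 1.73 RPM (0.920 to 2.95). At the 30-day level, 1.47 reads would have been counted in a library of the 180-day size. Set over the 30-day level, the 180-day level of miR-9 was 77.4 times as high (43.5 to 149.9), and the RPM intervals of the libraries did not overlap. miR-9*, which in neural cells is known to repress a chromatin remodelling subunit of progenitors, had 115 reads at 180 days, 134.9 RPM (111 to 162), against 14 reads at 30 days, 1.86 RPM (1.02 to 3.12). Its ratio was 72.5 (41.5 to 136.9), and its intervals did not overlap either.

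The strands of the hairpin were present in near-equal numbers at both ages. miR-9* took 50.2% of the hairpin's reads in the 180-day library (43.6 to 56.9%) and 51.9% in the 30-day library (31.9 to 71.3%). The wide interval at 30 days rests on 27 reads, so a shift in arm use of moderate size was not detectable there. With perfect matches alone the star share was 57.0% at 180 days and 18.2% at 30 days, since 2 of the 14 reads of miR-9* at 30 days were perfect matches. The ratio of miR-9* over perfect matches was then 345 (92.1 to 2900), on 73 and 2 reads, while that of miR-9 was 57.7 (28.3 to 133).

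Among the 470 arms with 20 or more reads over both libraries, miR-9 and miR-9* had the 16th and 17th highest ratio. An arm was called higher at a ratio of 2 or more, or lower at 0.5 or less, when the interval also excluded 1. By this rule 29.4% of the 470 arms were called higher at 180 days and 11.3% lower. Of the 7 member arms with 20 or more reads, 2 were called higher, the miR-9 arms, and 0 lower, while with whole-library scaling 2 were higher and 5 lower, beside 27 higher and 397 lower of all 470 arms. Per miRNA-matched read, the share of members called higher, 28.6%, lay near the background of 29.4%. By this count and scaling the members did not stand apart as a group. With TMM scaling 2 of the 7 were higher beside 72 of all 470 arms, and with median-of-ratios scaling 2 beside 75. Per miRNA-matched read the median log2 ratio of the members was 0.53, against 0.22 over all 470 arms. Both calls held when the reads were scaled to the lowest whole-library total that the tag numbers allow, where the ratio of miR-9 was 9.26 (5.21 to 17.9) and that of miR-9* was 8.68 (4.97 to 16.4).

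**Figure D2:**
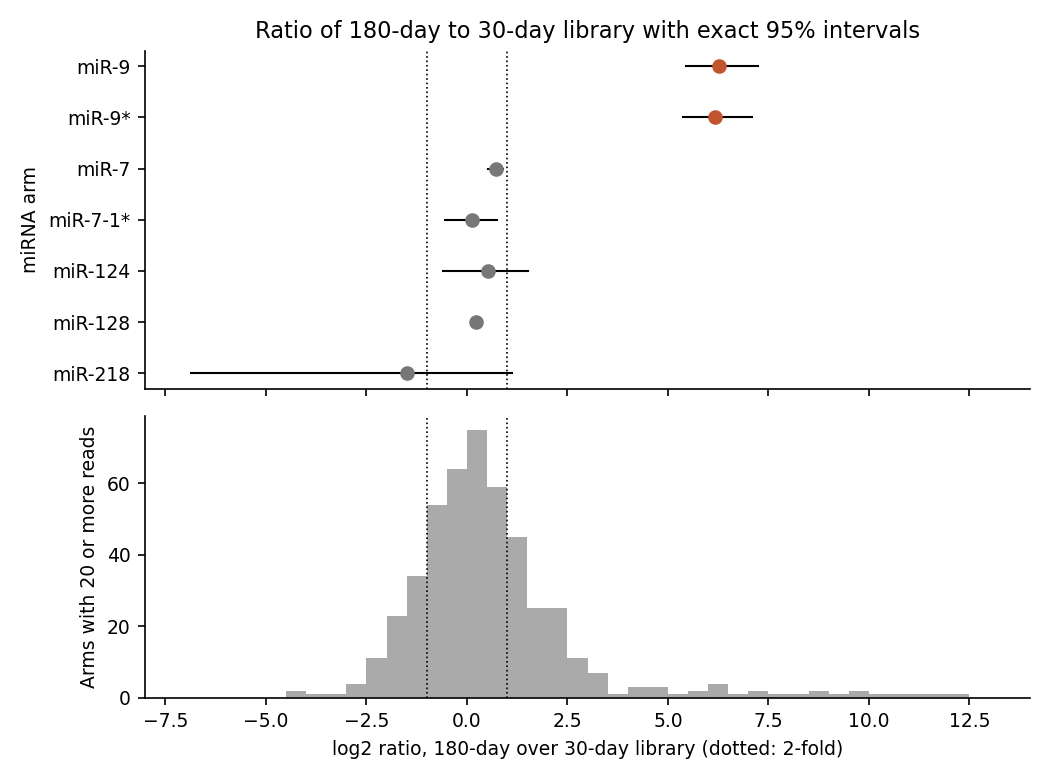
Upper panel, log2 ratio of the 180-day to the 30-day library for each member arm with its exact 95% interval; lower panel, the log2 ratios of all 470 arms with 20 or more reads (an arm with 0 reads in a library is drawn at 3 reads). Dotted lines mark 2-fold. miR-9 at 6.28 and miR-9* at 6.18 lie in the sparse upper tail. The other members lie among most arms, except miR-218, which lies low at -1.50 with a wide interval on 26 reads.

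By the ratio alone, few arms with 100 or more reads lay near miR-9. Over these libraries, the 2 arms with 100 or more reads nearest to it besides miR-9* were miR-129-3p, with 175 reads at 180 days and 91 at 30 days and a log2 ratio of 4.09, and an entry named miR-1819, with 160.8 RPM at 180 days and 0 reads at 30 days. The next nearest to miR-9* was miR-383, with 721 and 481 reads and a log2 ratio of 3.73. Each of these was more than 2 log2 units away from the miR-9 arms. Some arms with fewer than 100 reads lay closer. Among them were miR-375, with 62 reads at 180 days and 9 at 30 days and a log2 ratio of 5.93, and miR-219-3p, with 62 and 14 reads and 5.29. Other entries lay nearer to miR-9 than miR-219-3p did. They were miR159e (6.14), miR-975 (6.02), miR419 (5.84), miR1868 (6.84), miR-34 (7.05) and miR-1288 (7.23). Of these, miR159e, miR-975, miR1868 and miR-1288 had 0 reads at 30 days, so their log2 ratios rest on the limit of 3 reads. All these arms were named here after their values were seen.

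miR-7 was moderately abundant at both ages and its ratio stayed under the 2-fold rule. It had 274 reads at 180 days, which is 322 RPM (285 to 362), against 1474 reads at 30 days, which is 196 RPM (186 to 206). The ratio was 1.64 (1.44 to 1.87), with RPM intervals that did not overlap. It was above 1 per miRNA read, but 0.873 with TMM scaling, 0.889 with median-of-ratios scaling and 0.196 per read of the whole library, so its direction depends on the scaling. The arms nearest to it in ratio were miR-590-3p, miR-374 and miR-1468, with log2 ratios of 0.71, 0.70 and 0.69 beside 0.72 for miR-7.

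The opposite strand, miR-7-1*, had 24 reads at 180 days, 28.2 RPM (18.0 to 41.9), against 193 reads at 30 days, 25.6 RPM (22.2 to 29.5). The ratio of 1.10 (0.687 to 1.68) had an interval that included 1, and it was 0.584 with TMM, 0.595 with median-of-ratios and 0.131 with whole-library scaling. Of the miR-7 and miR-7-1* reads, the star strand took 8.05% in the 180-day library (5.23 to 11.7%) and 11.6% in the 30-day library (10.1 to 13.2%). These intervals overlapped. The miR-7 hairpins were read mainly from 1 strand and those of miR-9 from both. miR-7b had 1 read at 180 days and 2 at 30 days, in 3 different tags, none a perfect match.

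miR-128 was the most abundant member and ranked 50th of the arms in the 180-day library and 52nd in the 30-day library. It had 1918 reads at 180 days, 2251 RPM (2151 to 2354), against 14442 reads at 30 days, 1919 RPM (1888 to 1951). The ratio of 1.17 (1.12 to 1.23) lay wholly within 2-fold and had the narrowest interval of the measured members. It was 0.623 with TMM scaling, 0.635 with median-of-ratios scaling and 0.140 per read of the whole library. The arms nearest to it in ratio were miR-130b, miR-450b and miR-10d, at log2 ratios of 0.22, 0.22 and 0.24 beside 0.23 for miR-128.

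miR-124, a defining miRNA of neurons, was scarce at both ages. It had 10 reads at 180 days, 11.7 RPM (5.63 to 21.6), against 61 reads at 30 days, 8.11 RPM (6.20 to 10.4). Its ratio was 1.45 (0.661 to 2.85), which neither shows a difference nor excludes one of 2-fold, and it was 0.769, 0.784 and 0.173 with TMM, median-of-ratios and whole-library scaling. At 180 days miR-9 was read more often than miR-124, with 114 against 10 reads in the same library, and at 30 days less often, with 13 against 61 reads. The interval of miR-9 lay above that of miR-124 at 180 days and below it at 30 days. The name miR-124a, from a planarian entry, had 0 reads at 180 days and 1 at 30 days.

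miR-218, hosted by the SLIT genes, was the rarest measured member at 180 days and among the rarest at 30 days. It had 1 read at 180 days, 1.17 RPM (0.0297 to 6.54), against 25 reads at 30 days, 3.32 RPM (2.15 to 4.90). Per miRNA-matched read, 2.83 reads would have been counted at 180 days at the 30-day level, so by this scaling a difference was not detectable. The ratio was then 0.353, and its interval (0.00860 to 2.16) included 1. With whole-library scaling the ratio was 0.0422, and its interval (0.00103 to 0.258) excluded 1, so the result depends on the scaling. The star strand miR-218-2* had 0 reads at 180 days and 1 at 30 days. The limit of 3 reads used for a count of 0 is 3.52 RPM at 180 days, and the exact interval of 0 reads there reaches 4.33 RPM.

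The 30 other miRNAs of a nervous system list, chosen from textbook knowledge, gave 31 measured arms, of which 12 were called higher, 7 lower and 12 neither. That is 38.7% higher and 22.6% lower, against 29.4% and 11.3% of all arms, and the median log2 ratio of 0.21 lay beside 0.22 over all arms. The list held arms called in both directions. Its 4 most read arms were miR-383 at 846 RPM at 180 days and 63.9 RPM at 30 days (ratio 13.2, 11.8 to 14.9), miR-139-3p (0.890, 0.715 to 1.10), miR-139 (0.757, 0.537 to 1.04) and miR-95 (2.73, 2.17 to 3.42). The arms called lower carried 4 names, miR-485, miR-149, miR-323 and miR-135b, of which miR-485 and miR-323 lie in an imprinted cluster in mammals. These names were given after their values were seen. The share called depended on the scaling: 7 of the 31 arms were higher and 11 lower with TMM scaling, beside 72 and 158 of all 470 arms. With whole-library scaling 2 were higher and 24 lower, beside 27 and 397 of all 470 arms.

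Defining markers of neurons and glia had reads at both ages, some of them near the limit of detection. The arms of miR-124, miR-137, miR-138, miR-219, miR-338 and miR-129 summed to 357 RPM at 180 days, against 63.0 RPM at 30 days, and 0 of these 6 names were without reads in either library. Of their 7 measured arms 3 were called higher, 0 lower and 4 neither, a share of 42.9% higher beside 29.4% of all arms, and 0% lower beside 11.3%. miR-129-3p had 205 RPM at 180 days against 12.1 RPM at 30 days (ratio 16.98, 13.1 to 22.1), and miR-219-3p had 72.8 RPM against 1.86 RPM (39.1, 21.7 to 75.6). These arms made up most of the 180-day sum, and miR-129* was the third called higher (7.18, 3.18 to 15.9). Other arms of these names had too few reads to be measured. miR-129-5p had 5 reads at 180 days and 13 at 30 days (3.40, 0.948 to 10.2). miR-219-5p had 1 and 6 reads (1.47, 0.0320 to 12.1). Both intervals included 1, so a rise was not shown for these arms. The entry named miR-129 had 3 and 1 reads (26.5, 2.13 to 1391), and its interval excluded 1. miR-137 had 31.7 RPM at 180 days and 30.6 RPM at 30 days (1.04, 0.669 to 1.55). Also called neither were miR-124, miR-219 (1.56, 0.293 to 5.39) and miR-138 (0.841, 0.0956 to 3.44). miR-138 had 2 reads at 180 days and 21 at 30 days, and no miR-338 arm had more than 2 reads in either library. Of the germ cell markers given above, all 8 measured arms were also called higher, beside 29.4% of all arms. Their lowest log2 ratio was 8.85, against 6.28 for miR-9 and 6.18 for miR-9*. The part of either cell type in the miR-9 levels was not tested.

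A list of 12 miRNAs known from endocrine and neuroendocrine cells, where miR-7 is also found, gave 10 measured arms, of which 6 were called higher, 0 lower and 4 neither. The share of 60.0% stood beside 29.4% of all arms, and the median log2 ratio was 1.89 beside 0.22. Its most read arms were miR-182 at 460.0 RPM at 180 days and 44.2 RPM at 30 days (ratio 10.4, 8.96 to 12.1), miR-95, which is also in the list above, miR-200a (1.43, 0.984 to 2.03) and miR-200b (1.195, 0.794 to 1.74). With perfect matches alone 3 of 9 arms were called higher, beside 69 of all 297 arms measured so. With whole-library scaling 3 of 10 were higher and 5 lower, beside 27 and 397 of all 470 arms. The lists are small, miR-182, miR-183 and miR-96 come from 1 cluster, and both lists were chosen with earlier results of these data known.

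**Figure D3:**
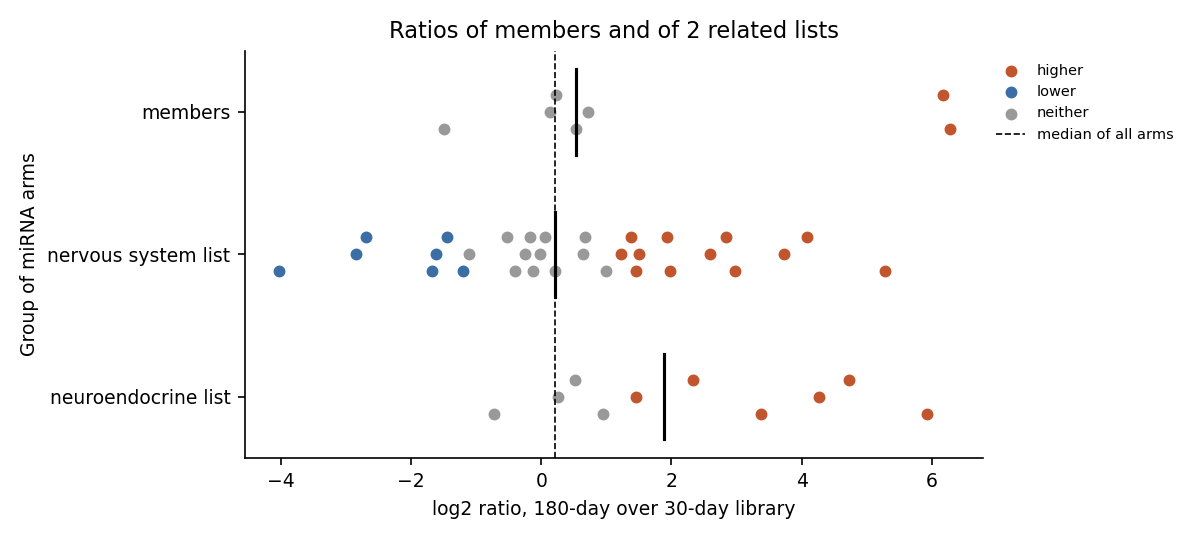
log2 ratio of the 180-day to the 30-day library for the 7 measured member arms, the 31 arms of the nervous system list and the 10 arms of the neuroendocrine list, coloured by the 2-fold rule; an arm with 0 reads in a library is drawn at 3 reads. Black bars mark the median of each group (0.53, 0.21 and 1.89) and the dashed line that of all arms (0.22).

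The tags showed the mature forms of these miRNAs with sharply set 5′ ends in the main strands. The leading start was carried by 97.2% of miR-128 reads in the 180-day library (96.3 to 97.9%) and 98.1% in the 30-day library (97.9 to 98.3%). For miR-7 these shares were 97.4% (94.8 to 98.97%) and 97.2% (96.2 to 98.0%). Every read of the main strands miR-124 and miR-218 had the same start, but few reads stood behind this. For miR-124 the interval of this share began at 69.2% with the 10 reads of the 180-day library. With the 61 reads of the 30-day library it began at 94.1%. For miR-218 it began at 86.3% with the 25 reads of the 30-day library. The only miR-218 read of the 180-day library could not show more than 1 start, so uniformity was not measurable there. Since the start sets the seed, miR-128 and miR-7 carried mainly the seeds printed above, as did miR-218 in the 30-day library. miR-9 was less uniform, with 87.7% of its reads at the leading start in the 180-day library (80.3 to 93.1%) and 92.3% in the 30-day library (64.0 to 99.8%).

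The star strands had mixed starts. In miR-9*, the start with A was carried by 78.3% of reads in the 180-day library (69.6 to 85.4%) and 50.0% in the 30-day library (23.0 to 77.0%), and nearly all others began 1 base later, which gives the shifted seed printed above. The later start took 20.9% of reads in the 180-day library (13.9 to 29.4%) and 50.0% in the 30-day library (23.0 to 77.0%), and the intervals overlapped. In miR-7-1*, the later start took 37.5% of reads in the 180-day library (18.8 to 59.4%) and 29.5% in the 30-day library (23.2 to 36.5%). These intervals overlapped too. Whether the start changed between the libraries was not tested for either star strand.

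Lengths differed between the miRNAs more than between the ages. miR-128 was mostly 21 nucleotides long, with 59.6% of reads in the 180-day library (57.4 to 61.8%) and 61.0% in the 30-day library (60.2 to 61.8%). miR-7 was mostly 24 nucleotides long, a length held by 4.62% of all miRNA reads at 180 days and 2.79% at 30 days. Its 24-nucleotide form took 67.2% of its reads in the 180-day library (61.2 to 72.7%) and 58.3% in the 30-day library (55.8 to 60.9%). The 23-nucleotide form of miR-7 took 16.4% (12.2 to 21.4%) and 25.5% (23.3 to 27.8%). In both forms the intervals of the ages did not overlap, while the mean length of miR-7 was 23.5 nucleotides at 180 days and 23.4 at 30 days. The most frequent length was 23 nucleotides for miR-9 and 22 nucleotides for miR-9* at both ages.

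**Figure D4:**
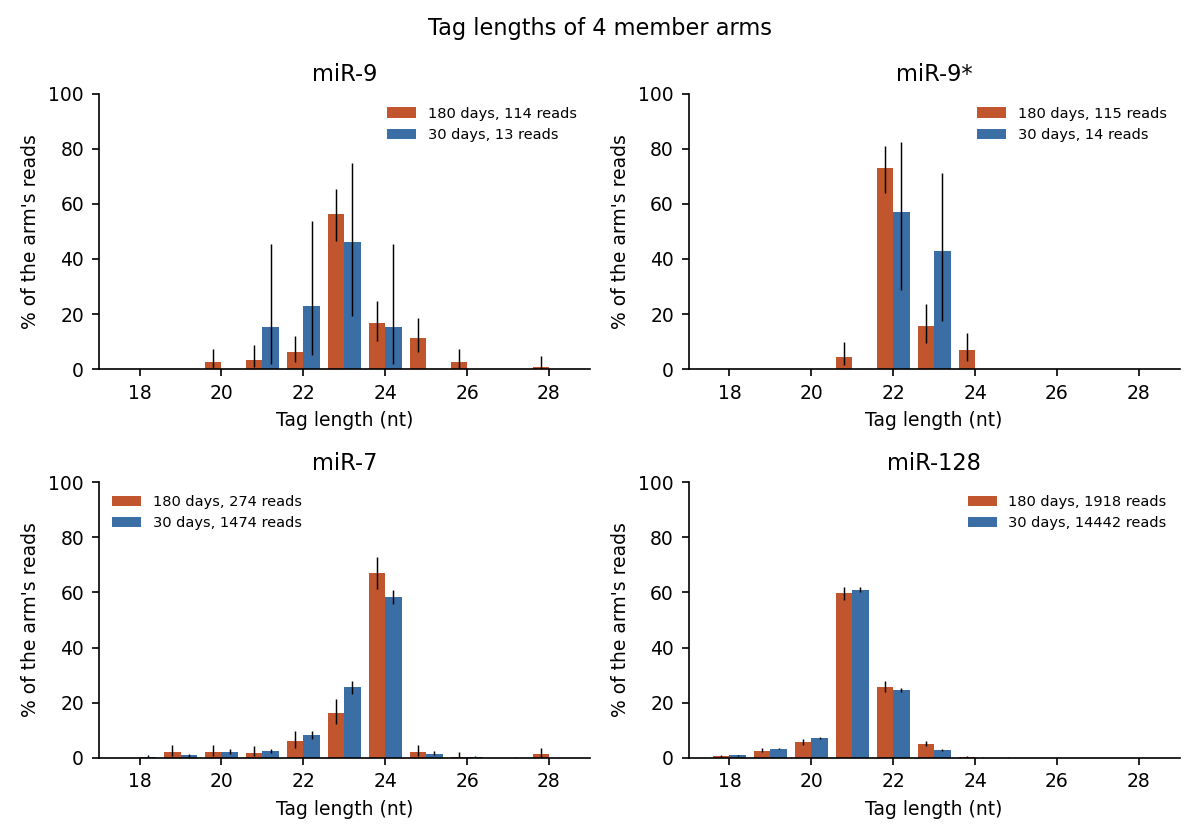
Share of each arm's reads (%) by tag length in nucleotides for miR-9, miR-9*, miR-7 and miR-128, at 180 days (left bars) and 30 days (right bars), with exact 95% intervals on lengths that had reads. miR-7 peaks at 24 nucleotides, with 67.2% of reads at 180 days and 58.3% at 30 days, and miR-128 at 21 nucleotides.

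The 3′ ends varied by miRNA. Reads that end in 1 to 3 A where the deposited entry has none made up 9.13% of all miRNA reads at 180 days and 8.63% at 30 days. Whether such bases were encoded in the genome was not tested. In miR-7 these ends were rare, with 1.46% of reads in the 180-day library (0.399 to 3.70%) and 2.04% in the 30-day library (1.38 to 2.89%). In miR-128 they were common and somewhat more so at 180 days, with 13.2% (11.7 to 14.8%) against 10.5% (9.995 to 11.001%). Among 163 arms with 100 or more reads in each library, this difference of 2.70 percentage points ranked 27th, and the median difference was 0.14. The form of miR-128 printed with A at its end had 148 reads at 180 days and 1140 at 30 days, the third most read tag of this arm in both libraries.

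In the miR-9 strands the ends with A were frequent as well. They took 22.8% of miR-9 reads in the 180-day library (15.5 to 31.6%) and 7.69% in the 30-day library (0.195 to 36.0%), which is 1 of 13 reads. In miR-9* they took 19.1% in the 180-day library (12.4 to 27.5%) and 85.7% in the 30-day library (57.2 to 98.2%), the 30-day share being 12 of 14 reads in 3 tags. The leading form of miR-9* printed above held 61.7% of its reads in the 180-day library (52.2 to 70.7%) and 14.3% in the 30-day library (1.78 to 42.8%). The intervals of the ages did not overlap for miR-9*, but the 30-day share rests on 14 reads of 4 tags.

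**Figure D5:**
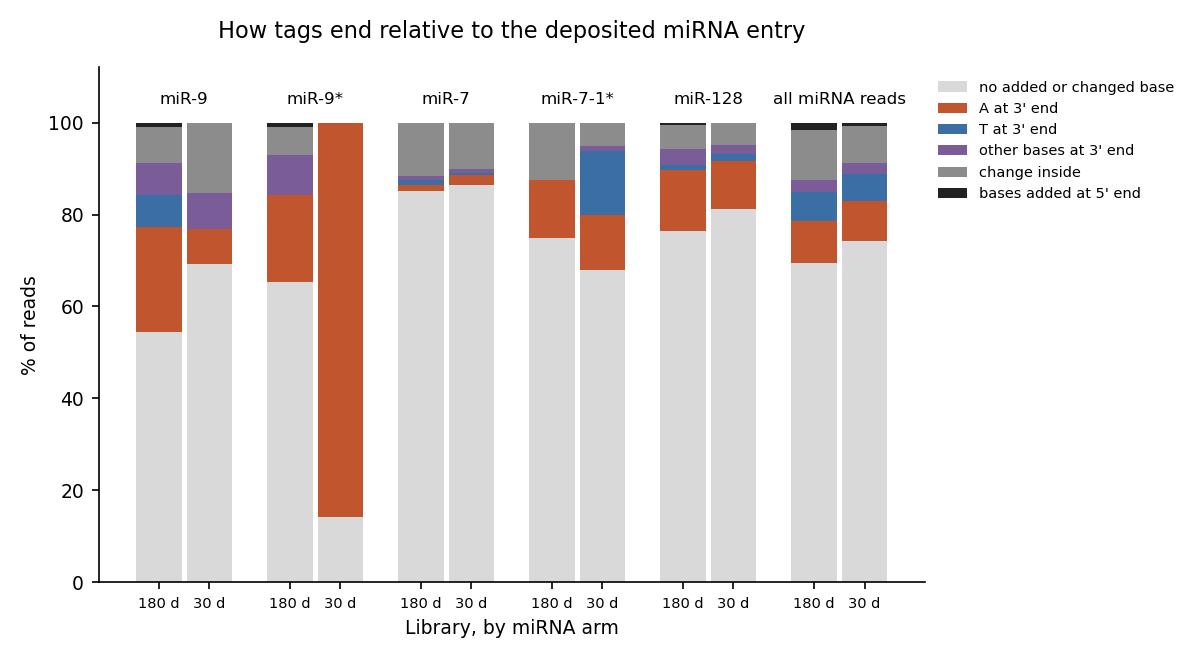
Share of reads (%) by how a tag ends relative to its deposited miRNA entry, for 5 member arms and all miRNA reads, at 180 days (left bar of each pair) and 30 days (right bar). Ends with A take 85.7% of the 14 reads of miR-9* at 30 days and 19.1% at 180 days, against 8.63% and 9.13% of all miRNA reads.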

How the data were processed

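Per the labels' protocols, RNA from the testes of 3 boars per age was pooled, cut from a gel at 18 to 30 nucleotides, given adapters, taken through 15 PCR cycles and read on an Illumina/Solexa machine. Each file the authors deposited lists tags matched to known miRNAs with their raw read counts. Aligner, miRNA release and genome build were not given in the sources used here. Tag and entry lengths, matching bases and an alignment score, which was not used, are deposited beside the counts. Reads were summed per deposited name and arm, after dropping species prefix and copy number. Ratios have exact conditional intervals (scipy 1.17.1, Python 3.11.15); an arm with 0 reads was set to 3 reads for the 2-fold rule. This code was tested on simulated data. No test and no p-value was computed, since each age has 1 library. TMM factors came from edgeR 4.0.16. The whole-library totals read the tag numbers as ranks by read count, an inference from the numbers. Tag starts and ends were placed by ungapped comparison with the deposited entries. Named by rule besides the members were the 3 arms of 100 or more reads nearest in log2 ratio to each member. The 4 most read arms of each list were also named by rule. The nearest to miR-7-1* were miR-101a, miR-10 and miR-500, those to miR-124 were miR-103, miR-15a and miR-200a, and those to miR-218 were miR-452, miR-411 and miR-485. In the red blood cell list, miR-451 and miR-144 arms summed to 3857 RPM at 180 days, against 1633 RPM at 30 days. miR-451 carried this sum, with a ratio of 2.46, while miR-144 and miR-144* had ratios of 0.833 and 0.868 and were called neither, and the list's median log2 ratio was -0.20. Members and lists were chosen with earlier results of these data known.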

Additional observations from a re-analysis of the deposited data

How the results depend on the processing

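The miR-9 and miR-9* calls held in every alternative run that kept the arms apart and measured them: other scalings, perfect matches, without tags of 1 read, other read minimums, the 1.5-fold rule and tags taken by sequence. With names kept apart, an alternative chosen after seeing the data, miR-9 without miR-9a had 12 reads and was not measured. Another so chosen, the share of ends with A without tags of 1 read, gave 19.8% for miR-9* at 180 days and 84.6% at 30 days, and 26.0% and 0% for miR-9. With TMM scaling the ratios of miR-9 and miR-9* were 41.2 and 38.6. The log2 median of all arms shifted by -0.91 with TMM, -0.88 with median-of-ratios and -3.06 with whole-library scaling, and by -0.11 without tags of 1 read. With whole-library scaling, at the lowest totals the tag numbers allow, 5 members were called lower. With both arms summed, 1 miRNA was called higher, and with the 1.5-fold rule 3 arms. Over all arms, 72 were higher and 158 lower with TMM, 75 and 158 with median-of-ratios, 27 and 397 with whole-library scaling, and 69 and 33 with perfect matches, while 77 were higher with a minimum of 100 reads, 250 with none, and 84 lower with the 1.5-fold rule. The nervous system list had 7 higher and 11 lower with TMM and with median-of-ratios, 2 and 24 with whole-library scaling, 5 and 4 with perfect matches, and 5 higher with a minimum of 100 reads. The neuroendocrine list had 1 lower with TMM, median-of-ratios and the 1.5-fold rule, 3 higher and 5 lower with whole-library scaling, 3 higher with perfect matches and 2 with a minimum of 100 reads. Fewer arms were measured with perfect matches (297) and the minimum of 100 reads (327).

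The star share of miR-9 with perfect matches was 57.0% at 180 days and 18.2% at 30 days, and that of miR-7 4.74% and 6.80%. With perfect matches the leading start took 100% of reads in miR-9, miR-7, miR-7-1* and miR-128 in both libraries, and 97.3% in miR-9* at 180 days and 100% at 30 days. These shares say nothing about the starts, since a perfect match leaves out a tag that starts after its entry. Without tags of 1 read it took 100% in miR-9 and 98.0% in miR-7 at 30 days. The cause of the other changes was not tested. Depth limits miR-218 and miR-124 at 180 days and the miR-9 forms at 30 days. No paired analysis was possible because each age has 1 library.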
